A study of Mus musculus with 6 samples.

Results

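The tricarboxylic acid (TCA) cycle genes described here were 9 genes, Cs, Idh3a, Idh3b, Idh3g, Ogdh, Sucla2, Suclg1, Fh1 and Mdh2, found by their symbols among the 23420 genes listed for whole mouse lungs at embryonic day E11.5. All 9 were in the table once and all 9 were tested. The controls, Rptor f/+; Shh Cre/+, made up 3 pools, and the mutants, Rptor f/f; Shh Cre/+, another 3. Each pool combined 3 or 4 lungs of 1 genotype, with littermates as controls. The study as a whole used embryos of both sexes, and the sexes within each pool were not given. By the labels every embryo carried Shh Cre, which is active broadly in the lung epithelium, and the controls kept 1 intact Rptor allele. Rptor encodes RPTOR, the scaffold protein of mTORC1, a kinase complex that couples nutrients and growth signals to protein synthesis and metabolism. Only epithelial cells lost Rptor, while the RNA came from the whole lung.

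The TCA cycle runs in the mitochondrial matrix. It oxidizes the acetyl group of acetyl-CoA to carbon dioxide and passes the electrons as NADH and FADH2 to the respiratory chain, and its intermediates also feed the synthesis of lipids, amino acids and heme. mTORC1 is known to act on mitochondrial function to a large extent through translation, a step that RNA counts do not measure. The comparison asked whether the RNAs of the cycle differed between lungs with and without epithelial Rptor.

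No TCA gene passed the test. At an adjusted p under 0.05 (limma on log2(normalized count + 1), Benjamini-Hochberg adjustment over 17168 tested genes), 0 of 9 were called, against 0.501% of all tested genes, or 86 genes (32 higher in the mutant, 0.186%, and 54 lower, 0.315%). At an unadjusted p under 0.05 the count was 1 of 9, Cs, against 13.6% of all tested genes. The quasi-likelihood test of edgeR, on read counts recovered from the table, called 0 of 9 against 0.539% of genes. DESeq2 called 0 of 9 against 1.93%. In each tool Cs was the 1 TCA gene with an unadjusted p under 0.05, beside 14.9% of genes in edgeR and 10.8% in DESeq2. In limma, the unadjusted p of Cs was 0.110 without a trend and 0.053 with the replicate number as a block. It was also above 0.05 in limma when any pool other than control pool 3 was left out. Of the 9 log2 fold changes (mutant minus control), 5 were above 0 and 4 below, from -0.10 for Cs to 0.07 for Fh1, and their median was 0.04 beside -0.0021 over all tested genes. With the log2 level of Xist as a covariate this split was 2 above and 7 below, with a median of -0.050.

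The intervals were narrow. The 95% intervals of the 9 genes together ran from -0.22 to 0.18 on the log2 scale, which is 0.858-fold to 1.13-fold. All 9 intervals of this fit therefore lay inside 1.2-fold in either direction, a property shared by 41.2% of the tested genes. Other fits did not keep this. With the log2 level of Xist as a covariate the lower bounds of Mdh2, Idh3a and Cs were -0.37, -0.32 and -0.29, beyond 1.2-fold. In limma without a trend the lower bound of Mdh2 was -0.28, also beyond it. The 9 TCA genes have well-covered RNAs. Their mean counts ranked between the 74.6th and the 98.1st percentile of the tested genes, and 1219 to 8620 reads stood behind each value. A change confined to the epithelium would be diluted by the RNA of the other cells of the lung; its size there was not measured.

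**Figure D1:**
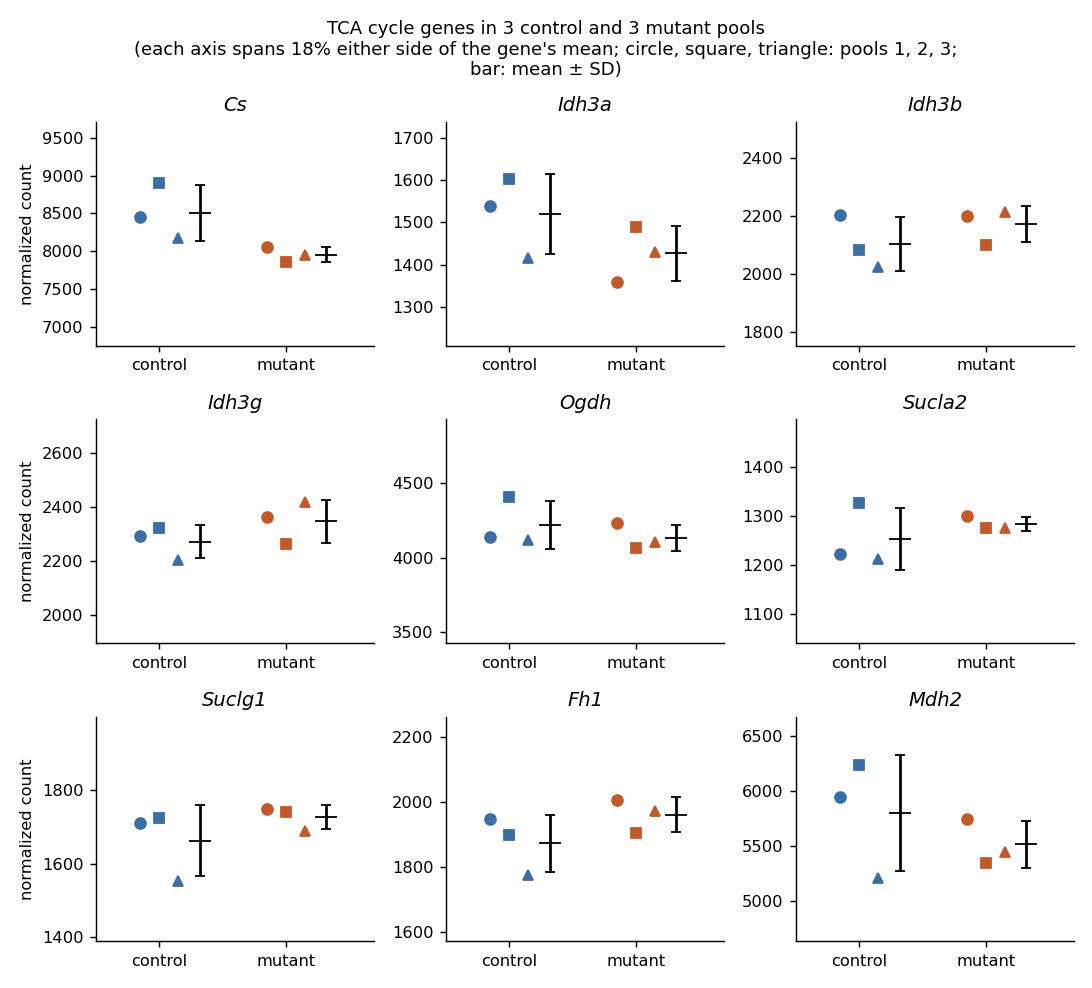
Normalized counts (vertical axis) of the 9 TCA genes in the 3 control and 3 mutant pools, with the mean and SD of each group; each axis spans 18% either side of the gene's mean and does not start at 0. The groups overlap for every gene other than Cs, whose 3 mutant pools sit between 7852 and 8050 and below the lowest control pool at 8172.

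The upstream sequences of the genes on which the text turns are shown first: Cs, the gene with the lowest p; Idh3g, the X-linked gene; and Mdh2, the gene with the widest spread. They come from RefSeq's promoter table (GRCm38.p6), which held 8 of the 9 genes (Idh3a was not matched), and only bases outside annotated exons are given, 5′ to 3′ on the gene's strand. Cs lies on chromosome 10 (128337734 to 128362479, plus strand, GRCm38), and its 250 bases are chr10:128337477-128337726. Idh3g lies on chromosome X (73778963 to 73786897, minus strand), and its 130 bases, chrX:73786898-73787027 on the minus strand, are the whole gap between the start of Idh3g and that of Ssr4, which is transcribed the other way. Mdh2 lies on chromosome 5 (135778480 to 135790398, plus strand), and its 81 bases are chr5:135778399-135778479. Capitals mark matches to searched motifs.
Cs: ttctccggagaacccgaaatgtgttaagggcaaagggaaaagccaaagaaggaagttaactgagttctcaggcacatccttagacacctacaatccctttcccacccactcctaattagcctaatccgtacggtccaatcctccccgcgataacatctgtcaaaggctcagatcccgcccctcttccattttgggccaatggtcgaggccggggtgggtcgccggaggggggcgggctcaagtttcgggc
Idh3g: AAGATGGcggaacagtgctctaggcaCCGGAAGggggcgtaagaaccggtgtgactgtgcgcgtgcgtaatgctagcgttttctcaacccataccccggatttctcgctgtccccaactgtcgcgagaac
Mdh2: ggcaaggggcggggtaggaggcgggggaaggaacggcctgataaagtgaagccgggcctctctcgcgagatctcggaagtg

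Short core motifs of 5 factors or factor families known for mitochondrial or growth genes were searched on both strands of the 250 bases upstream of each RefSeq start, with no correction for overlaps between motifs. The Idh3g window held 2 of them, AAGATGG (YY1, in 4.51% of 32544 windows of that length in the table) and CCGGAAG (the ETS family, 6.95%). Of the 6 Ogdh windows, which belong to alternative starts and partly overlap, 3 held CACGTG (E-box, 6.03%) and 2 of these also held TGCGCA (NRF1, 6.46%). AAGGTCA (estrogen-related receptors, 4.09%) was in none of the TCA windows, and the Cs, Idh3b, Sucla2, Suclg1, Fh1 and Mdh2 windows held none of the 5. A match is a run of letters and not a measured binding site. Ssr4, whose start is 131 bases from that of Idh3g, was at 0.06 on the log2 fold change scale (SE 0.06; adjusted p = 0.703 by limma) beside 0.05 for Idh3g.

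Cs encodes citrate synthase, which joins acetyl-CoA to oxaloacetate and so begins the cycle. Over control pools 1, 2 and 3 its normalized counts were 8450, 8905 and 8172, and over mutant pools 1, 2 and 3 they were 8050, 7852 and 7952. All 3 mutant pools were below all 3 control pools. Cs was the 1 TCA gene whose groups did not overlap, beside 20.2% of the tested genes (10.5% with the mutant lower and 9.77% with the mutant higher). The group means were 8509 ± 370.0 and 7951 ± 99.4 (SD, n = 3 each). The log2 fold change was -0.10 (SE 0.04, 95% interval -0.19 to -0.01), with an unadjusted limma p of 0.0390 and an adjusted p of 0.335, so the difference did not pass. Cs has 2 near-identical relatives, the processed pseudogene Gm48254, at 91.9% identity over 469 bases and not among the listed genes, so its reads could not be checked, and Csl, at 90.4% identity over 1617 bases. Csl was nearly silent here at 0 to 3.1 normalized counts in every pool, against the 7852 to 8905 of Cs.

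Idh3a, Idh3b and Idh3g encode the alpha, beta and gamma subunits of the NAD-dependent isocitrate dehydrogenase, which carries out the first oxidative decarboxylation; the alpha subunit is the catalytic one. Idh3a (chromosome 9, 54586334 to 54604661, plus strand) had counts of 1539, 1602 and 1416 in the controls and 1359, 1489 and 1431 in the mutants. The lowest value was in mutant pool 1 and the groups overlapped. Its log2 fold change was -0.09 (SE 0.06, 95% interval -0.22 to 0.04, adjusted p = 0.540 in limma).

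Idh3b (chromosome 2, 130279309 to 130284547, minus strand) had counts of 2204, 2084 and 2024 in the controls and 2201, 2101 and 2214 in the mutants. Its log2 fold change was 0.05 (95% interval -0.06 to 0.15, limma adjusted p = 0.720), with control pool 1 as high as the mutants. Idh3b shares 5 exon bases with Nop56 on the opposite strand. Idh3g had counts of 2291, 2320 and 2202 in the controls and 2361, 2261 and 2418 in the mutants, and its log2 fold change was 0.05 (95% interval -0.05 to 0.15, limma adjusted p = 0.696). The beta and gamma genes thus lay slightly above 0 and the alpha gene below it, each within the spread of the pools.

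Ogdh encodes the E1 component of the 2-oxoglutarate dehydrogenase complex, the second decarboxylating step. Its counts (chromosome 11, 6291633 to 6356642, plus strand) were 4136, 4404 and 4118 in the controls and 4233, 4063 and 4102 in the mutants. The log2 fold change was -0.03 (95% interval -0.12 to 0.06, limma adjusted p = 0.805). Control pool 2 alone stood above the rest, and without it the log2 fold change of Ogdh was 0.0017.

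Succinyl-CoA ligase makes ATP or GTP at the substrate level. Sucla2 encodes its ATP-specific beta subunit and Suclg1 the alpha subunit common to both forms. Sucla2 (chromosome 14, 73525319 to 73596142, plus strand) had counts of 1222, 1326 and 1212 in the controls, and the mutants at 1301, 1276 and 1276 fell inside that range. Its log2 fold change was 0.04 (95% interval -0.08 to 0.15, limma adjusted p = 0.806). Suclg1 (chromosome 6, 73248382 to 73276911, plus strand) had counts of 1712, 1725 and 1552 in the controls and 1749, 1741 and 1689 in the mutants. Only control pool 3 was clearly apart, and the log2 fold change was 0.06 (95% interval -0.06 to 0.17, limma adjusted p = 0.691).

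Fh1 encodes fumarase and Mdh2 the mitochondrial malate dehydrogenase, the enzymes that turn fumarate into malate and malate back into oxaloacetate. Fh1 (chromosome 1, 175600374 to 175625635, minus strand) had counts of 1947, 1898 and 1775 in the controls and 2008, 1904 and 1974 in the mutants. The log2 fold change was 0.07 (95% interval -0.04 to 0.18, limma adjusted p = 0.591), the highest of the 9. Mdh2 had counts of 5941, 6234 and 5212 in the controls and 5747, 5344 and 5447 in the mutants. Its control pools held both the highest and the lowest of its 6 values, and the log2 fold change was -0.07 (95% interval -0.21 to 0.07, limma adjusted p = 0.680).

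**Figure D2:**
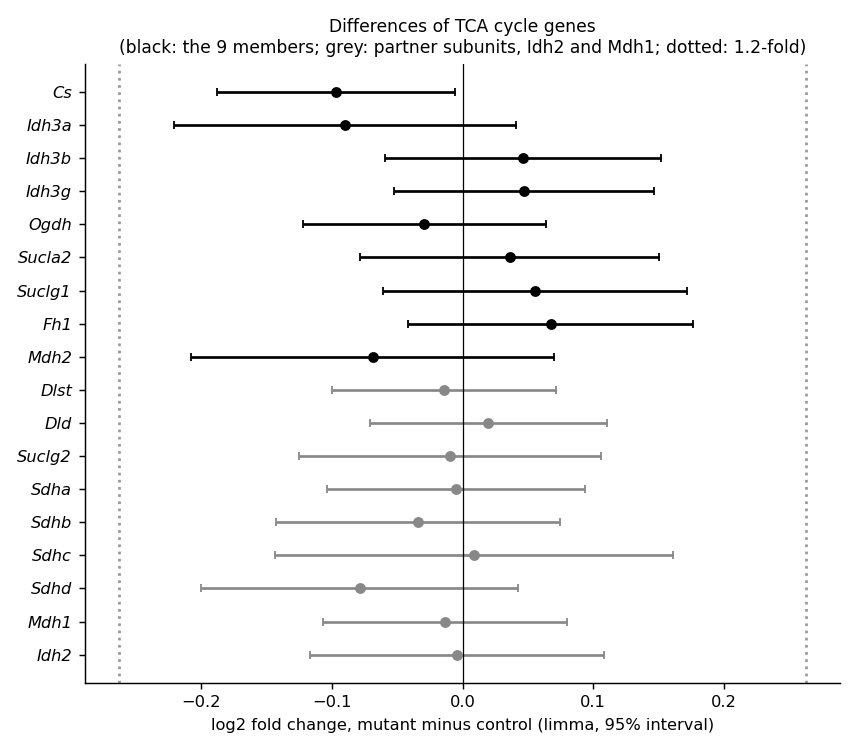
Log2 fold change, mutant minus control, with its 95% interval from limma (horizontal axis) for the 9 TCA genes (black) and for Dlst, Dld, Suclg2, Sdha, Sdhb, Sdhc, Sdhd, Idh2 and Mdh1 (grey); dotted lines mark 1.2-fold either way. Every interval other than that of Cs crosses 0, and all of those drawn lie within the dotted lines.

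In most of the 9 genes the control pools differed among themselves more than the mutant pools did. The SD of the normalized counts was larger in the controls for 8 of the 9 genes, the exception being Idh3g, beside 62.3% of all tested genes, and for Mdh2 it was 526 in the controls and 209.7 in the mutants. Over the 14576 to 14686 genes compared in each pair, the chi-square per degree of freedom between 2 pools was 4.408 to 13.94 among the controls and 2.188 to 4.51 among the mutants. Control pools 1 and 2 were at 4.408, below mutant pools 1 and 2 at 4.51. Larger values came only from the pairs with control pool 3, at 7.899 and 13.94. Control pool 3 was the lowest of the 6 pools for 6 of the 9 genes, beside 24.3% of all tested genes, and none of the 9 was above its own mean there. Control pool 2 was the highest for 5 of 9, beside 19.3% of all tested genes. The mean of the 9 genes, each centred on its own mean on the log2 scale, was 0.02 for the first control pool, 0.06 for the second and -0.07 for the third, and 0.01, -0.02 and 0.00032 for mutant pools 1, 2 and 3. The summed counts of the 9 genes were 29441, 30499 and 27683 in the controls, or 0.142%, 0.146% and 0.134% of all normalized counts, and 29010, 28030 and 28504 in the mutants, or 0.139%, 0.134% and 0.137%. All 3 mutant pools lay between control pools 3 and 1.

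**Figure D3:**
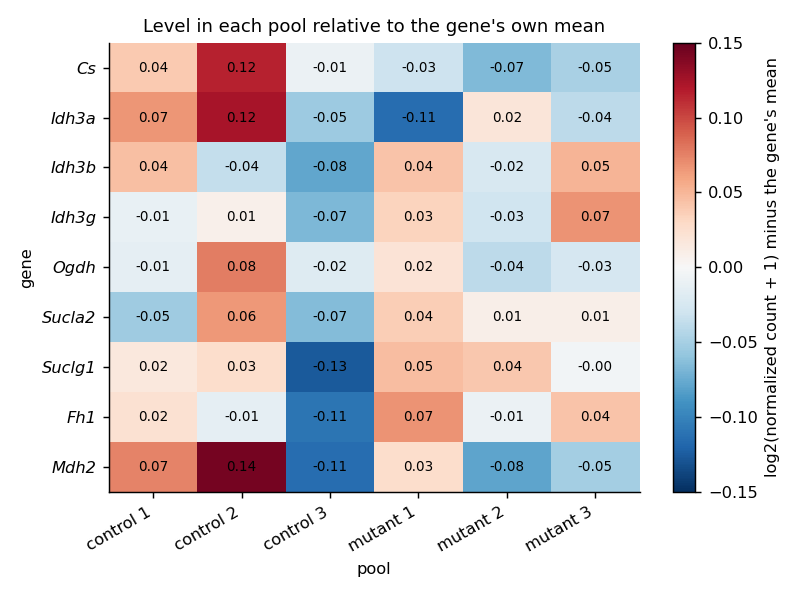
Level of each TCA gene (rows) in each pool (columns), as log2(normalized count + 1) minus the gene's mean over the 6 pools; red is above and blue below the mean. Control pool 3 is below the mean for all 9 genes, and control pool 2 is above it for 7.

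Control pool 3 also stood apart in its sex-linked RNAs, and control pool 1 in Xist. Xist, the RNA that coats the inactive X chromosome in females, had normalized counts of 4599, 309 and 12989 over control pools 1, 2 and 3 and of 41.9, 466 and 161 over the mutant pools. The Y-linked gene Ddx3y was lowest in control pool 3, at 735 against 1016 to 1212 in the other pools. Xist was higher in the controls on average, at 5966 against 223, and the groups overlapped in both RNAs. The sexes of the embryos in each pool were not given in the labels. Which control pools entered the fit moved the values of Cs, Idh3a and Mdh2 in opposite directions. Without control pool 2, the pool in which these 3 genes were highest, their log2 fold changes were -0.06, -0.05 and -0.01 (limma adjusted p of 0.473, 0.738 and 0.933), and none of the 9 had an unadjusted p under 0.05. Without control pool 3 the log2 fold changes were -0.13 for Cs, -0.14 for Idh3a and -0.14 for Mdh2, with limma adjusted p of 0.0814, 0.182 and 0.0835. All 3 then had an unadjusted p under 0.05, beside 8.58% of all tested genes in that direction, and 0 of 9 were called, beside 2.75% of all tested genes. With the log2 level of Xist as a covariate, Cs was at -0.18 (limma adjusted p = 0.236) and Mdh2 at -0.23 (limma adjusted p = 0.204), the 2 TCA genes with an unadjusted p under 0.05, beside 5.74% of all tested genes in that direction, and again 0 of 9 were called, beside 0.396% of all tested genes. Idh3g, the X-linked one, moved from 0.05 to -0.0088 in that fit. Xist was spread unevenly over the genotypes but not called (log2 fold change -4.16, limma adjusted p = 0.164). The fit with Xist as a covariate therefore cannot fully separate embryo sex from loss of Rptor. The part of embryo sex in these values was not tested.

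The TCA genes fell and rose together over the pools only in part. Of the 36 pairs, 29 had a positive Pearson correlation of log2 values over the 6 pools and 7 a negative one, with a median of 0.42. Idh3b and Fh1 were the closest pair (r = 0.92), and Cs and Mdh2 were at 0.82, while Cs and Idh3b were at -0.21 and Idh3a and Idh3b at -0.20. The 6 points of each pair are the same 6 libraries and include both genotypes, so these are descriptions. Cs, Idh3a, Ogdh and Mdh2 had their highest value in control pool 2, as did Sucla2, and Idh3b, Idh3g, Suclg1 and Fh1 had theirs in a mutant pool.

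Among 11449 genes with a mean count of at least 100, 77 had a correlation above 0.95 with the mean profile of the 9 genes over the 6 pools. The 5 closest were Gne (r = 0.996), Pcna (0.993), Slc25a3 (0.989), Eef1g (0.988) and Vps36 (0.988). Slc25a3, the phosphate carrier of the mitochondrial inner membrane, had counts of 9776, 10227 and 8878 in the controls and 9724, 9256 and 9461 in the mutants. Pcna, the sliding clamp of DNA replication, had 6194, 6581 and 5408 in the controls and 6142, 5773 and 5921 in the mutants. Both were lowest in control pool 3 and highest in control pool 2, like the TCA mean, which follows from how they were chosen.

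Levels were compared between genes per kilobase of annotated exon (GENCODE M21, all exons of a gene merged). In the controls, Mdh2 at 1627 ± 148 normalized counts per kilobase and Cs at 1472 ± 64.0 (SD, n = 3) were the 2 highest of the 9, and their ranges over the pools overlapped. Idh3g followed at 841 ± 22.9, Ogdh at 773 ± 29.4, Idh3b at 615 ± 26.8 and Fh1 at 552 ± 26.1, with no overlap between neighbours in that order. Suclg1 was at 360.2 ± 20.9, Sucla2 at 314 ± 15.9 and Idh3a at 299.5 ± 18.6. The ranges of Sucla2 and Idh3a overlapped, and those of Suclg1 and Sucla2 did not. The catalytic subunit of isocitrate dehydrogenase was thus the lowest of its 3 subunits per kilobase. Idh2, the NADP-dependent mitochondrial isocitrate dehydrogenase, was above all 9 at 2598 ± 181 in the controls and 2585 ± 23.9 in the mutants. The merged length can exceed that of the transcripts expressed, so these orders depend on it. Before division by length, the control mean of Cs (8509) was above those of Idh2 (6722) and Mdh2 (5796).

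Ratios within a pool do not depend on how the library was scaled. They were taken for 7 pairs of partner genes. The two-sided exact permutation test over 3 against 3 pools has 20 splits and cannot give a p below 0.1, so no ratio could pass 0.05, and the p-values given only place each difference among those splits. The log2 ratio of Idh3a to Idh3b was -0.52, -0.38 and -0.51 in the controls and -0.70, -0.50 and -0.63 in the mutants, and the mutant minus control difference of -0.14 had an exact p of 0.3 (0.7 adjusted over the 7 ratios). The log2 ratio of Idh3a to Idh3g differed by -0.14 as well (exact p = 0.2, adjusted 0.7), from -0.58 ± 0.05 to -0.72 ± 0.10 (SD, n = 3). These 2 differences share Idh3a. The log2 ratio of Idh3b to Idh3g was -0.11 on average in both groups, with a difference of -0.00057 (exact p = 1). Sucla2 against Suclg1 differed by -0.02 (exact p = 0.7), Sucla2 against Suclg2 by 0.05 (exact p = 0.3), Ogdh against Dlst by -0.02 (exact p = 0.4), and Mdh2 against its cytosolic counterpart Mdh1 by -0.06 (exact p = 0.5). The groups overlapped in all 7.

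**Figure D4:**
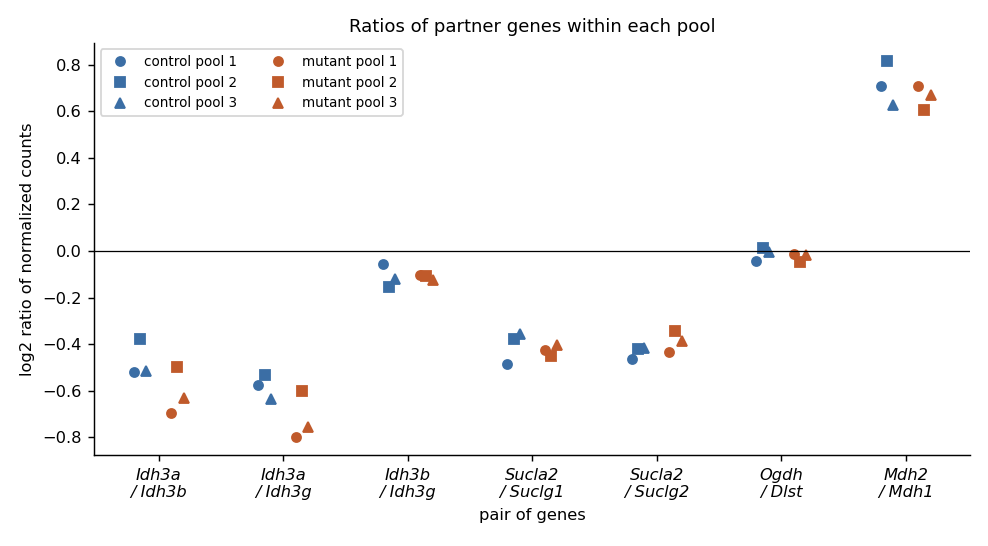
Log2 ratio of the normalized counts of 2 partner genes (vertical axis) in each control and mutant pool, for 7 pairs (horizontal axis). The mutant pools overlap the control pools in every pair; the mutant means of both Idh3a ratios are 0.14 below the control means.

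The other genes of the cycle gave the same count. Of 18 listed, 15 were tested and 0 were called or had an unadjusted limma p under 0.05; 5 were higher and 10 lower in the mutant, with a median log2 fold change of -0.01. Sdhd, which anchors succinate dehydrogenase in the inner membrane, had the lowest p, with counts of 2247, 2310.0 and 2133 in the controls and 1985, 2243 and 2110.3 in the mutants and a difference of -0.08 on the log2 scale (limma adjusted p = 0.570). Its partner subunits Sdha, Sdhb and Sdhc were at -0.01, -0.03 and 0.01. Suclg2, the GTP-specific beta subunit of succinyl-CoA ligase, was at -0.01, and Dlst and Dld, the E2 and E3 components of the 2-oxoglutarate dehydrogenase complex, at -0.01 and 0.02.

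Of 17 genes for the entry of pyruvate into the mitochondrion and its conversion to acetyl-CoA, 0 were called, and the median log2 fold change was 0.04. The unadjusted limma p was under 0.05 for 2 higher genes and 1 lower gene, beside 6.67% and 6.89% of all tested genes. Pdk2, a kinase that inhibits pyruvate dehydrogenase, had counts of 643, 611 and 602 in the controls and 761, 712 and 759 in the mutants. All 3 mutant pools were above the controls, the log2 fold change was 0.27 (SE 0.06), and the limma adjusted p was 0.0975. Pdp2, a phosphatase that activates the same enzyme, had counts of 361, 383 and 396 in the controls and 323, 351 and 321 in the mutants, and its log2 fold change was -0.20 (SE 0.08, limma adjusted p = 0.303). Mpc2, a subunit of the mitochondrial pyruvate carrier, was the other higher gene at 0.18 (limma adjusted p = 0.367; named after its value was seen).

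The 10 genes of cytosolic counterparts and citrate use held 0 calls and had a median of -0.05. Acly, the cytosolic enzyme that splits citrate into acetyl-CoA and oxaloacetate, had counts of 7706, 8170 and 7478 in the controls and 7337, 7147 and 7198 in the mutants (log2 fold change -0.11, limma adjusted p = 0.299). Like Cs, it was lower in every mutant pool than in every control pool. Got1, the cytosolic aspartate aminotransferase, was at -0.13 (limma adjusted p = 0.370). The 12 genes that supply glutamine, glutamate and aspartate to the cycle also held 0 calls, with a median of 0.01. Pck2, the mitochondrial phosphoenolpyruvate carboxykinase, was at 0.19 (limma adjusted p = 0.176). Slc1a5, a glutamine transporter of the plasma membrane, was at -0.17 (limma adjusted p = 0.178), and Slc25a13, a mitochondrial aspartate-glutamate carrier named after its value was seen, at -0.16 (limma adjusted p = 0.256).

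The 16 core genes of glycolysis, the cytosolic pathway that yields pyruvate, held 0 calls, but 9 of them had an unadjusted limma p under 0.05 and all 9 were lower in the mutant, beside 6.89% of all tested genes. These 9 include Gapdh, whose counts ran from 142 to 5276 with overlapping groups. The median log2 fold change of the 16 genes was -0.16, with Eno1 among them at only 2.0 to 11.4 normalized counts. Pkm, pyruvate kinase, had counts of 42041, 41130.0 and 44061 in the controls and 34470, 37771 and 36549 in the mutants; its log2 fold change was -0.23 (SE 0.05, limma adjusted p = 0.0710). Ldha, the lactate dehydrogenase subunit A gene, had 16568, 14951 and 18580 in the controls and 13602, 14020 and 13837 in the mutants, with -0.27 on the log2 scale (SE 0.07, limma adjusted p = 0.124). Both were highest in control pool 3, the pool in which most TCA genes were lowest. DESeq2 called 3 genes of these related lists, Pkm, Ldha and Aldoa, all of glycolysis and lower in the mutant, beside 1.93% of all genes it tested. Whether the TCA genes and the glycolysis genes differed in their response was not tested.

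**Figure D5:**
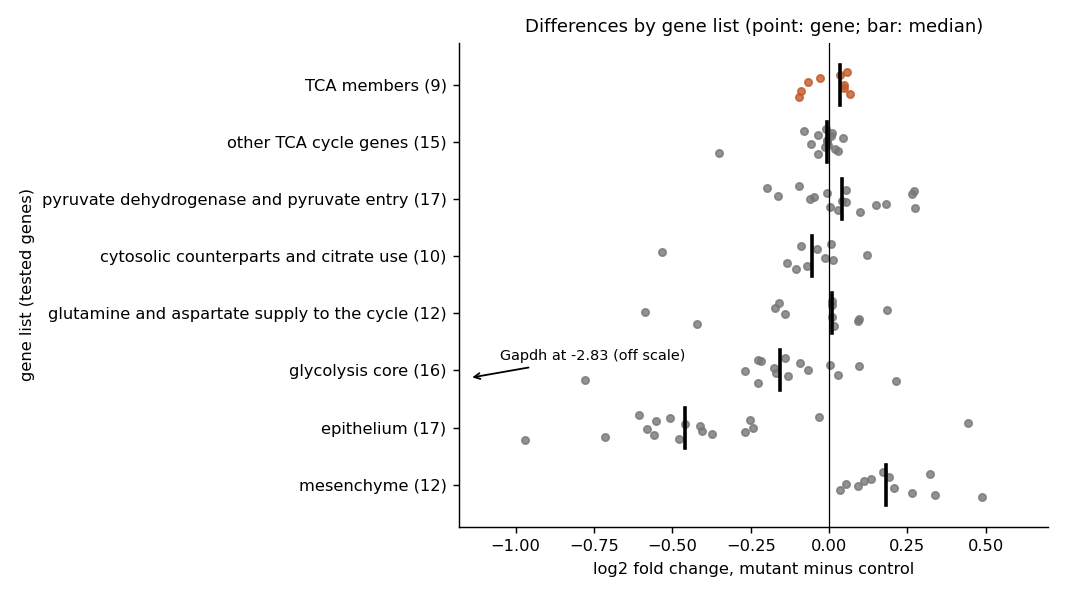
Log2 fold change, mutant minus control (horizontal axis), of each tested gene (points) in 8 gene lists (rows), with the list's median (bar). The TCA genes lie between -0.10 and 0.07. Of the 16 glycolysis genes 12 lie below 0, among them Eno1, at only 2.0 to 11.4 normalized counts. Gapdh, whose counts ran from 142 to 5276 with overlapping groups, is off the scale.

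Marker RNAs of several cell types differed between the groups. The summed count of 17 epithelial markers was 15698 to 19254 in the controls and 12123 to 13294 in the mutants, a ratio of 0.729; 16 of the 17 were lower and 7 were called lower, beside 0.315% of all tested genes. All 12 mesenchymal markers were higher, 3 of them called, beside 0.186% of all tested genes, and their sum was 110160 to 116780 in the controls and 133000 to 140070 in the mutants, a ratio of 1.21. Endothelial markers (9, ratio 1.12), smooth muscle markers (5, 1.253), mesothelial markers (4, 1.16) and macrophage markers (5 of 6 in the table, 1.09) summed higher in the mutants, cardiac muscle markers (9, 0.828) and neural markers (6, 0.963) lower, and erythroid markers (8) had a ratio of 1.001. The groups overlapped in the macrophage sum (1764 to 2690 in the controls and 2394 to 2512 in the mutants). They also overlapped in the neural sum (1692 to 1793 and 1394 to 1858) and in the erythroid sum. No defining marker was at 0 in any pool other than Hba-a1 among the erythroid genes. In bulk RNA, fewer cells of a type and less RNA per cell cannot be told apart, and the part of this shift in the TCA values was not tested. Rptor itself was at 2126, 2193 and 2279 normalized counts in the controls and 2023, 2137 and 2148 in the mutants, with means of 2199 ± 77.0 and 2103 ± 69.1 (SD, n = 3) and a difference of -0.06 on the log2 scale (limma adjusted p = 0.584). The count covers the whole gene and all cells of the lung, so it is a weak check of the labels.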

How the data were processed

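Lungs at E11.5 were sequenced on the BGISEQ-500. The submitters' processing notes name Trim Galore, HISAT2, featureCounts, DESeq2 and mm10, without versions. The values analysed are signal values deposited by the authors: gene counts divided by a library size factor, called normalized counts. Their own comparison columns (log2 fold changes with errors, the test score, p-value and adjusted p-value) and their mean were deposited beside these and not used.

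Every value was a whole multiple of 1 read's worth (tolerance 0.001, 100% of values), giving 20197642 to 21276090 reads per library. Genes at 1 or more in at least 3 libraries (17168) were fitted as log2(normalized count + 1), a scale that understates changes of low genes, with limma 3.58.1 (lmFit, eBayes with trend; R 4.3.3). edgeR 4.0.16 and DESeq2 1.42.0 were run on the recovered reads. Scripts were tested on simulated data. Pools of the same genotype differed by more than counting noise (chi-square per degree of freedom 2.188 to 13.94). By the paper, mutants of several litters were put together in its statistics. It does not say which litters entered which pool, or that the 3 pools of a group came from separate litters. The p-values therefore measure the spread between these pools. In the table, 27 symbols had been turned into dates.

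The members and gene lists were chosen with earlier results of these data known. All members are named, and in each related list up to 3 genes with an adjusted p under 0.05 or, where none passed, the 2 with the lowest unadjusted p, with the partner subunits, Rptor and the 5 genes most like the members' mean; 1 gene named by this rule is not reported here. Gene models are from GENCODE M21 (GRCm38); near-identical transcripts were searched with blastn 2.17.0.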

Additional observations from a re-analysis of the deposited data

How the results depend on the processing

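The count of TCA genes called was 0 under all 17 alternatives. The count over all tested genes was 86 and varied: 8 with limma without a trend, 277 with DESeq2, 223 at an adjusted p under 0.1, and 1 to 468 when 1 pool was left out (1 without control pool 1, 147 without control pool 2, 468 without control pool 3, 12 without mutant pool 1, 21 without mutant pool 2 and 1 without mutant pool 3). Calls in the related lists were 0, with 3 in DESeq2, 2 at an adjusted p under 0.1 (Pkm and Pdk2), and 0 to 3 with 1 pool left out: Ldha, Aldoa and Pgk1 without control pool 2, and Pkm and Ldha without control pool 3. These counts for the related lists were added after seeing the data. The median of the TCA genes was -0.050 with the Xist covariate and 0.0065 to 0.041 with 1 pool left out. Directions turned in few places: with the Xist covariate Idh3g was at -0.0088, Sucla2 at -0.050 and Suclg1 at -0.018; Ogdh ran from -0.047 to 0.0017 with 1 pool left out; the ratio of Idh3b to Idh3g ran from -0.023 to 0.027 and that of Sucla2 to Suclg1 from -0.059 to 0.0058. The cause was not tested. The adjusted p of Cs ran from 0.0814 to 0.623 over the alternatives, and that of Mdh2 from 0.0835 to 0.933.

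Pools with the same replicate number hold different embryos. Their deviations correlated at -0.019, 0.10 and 0.031 for numbers 1, 2 and 3, against -0.11 to 0.084 for unlike numbers. Such weak values from few pools cannot decide whether the numbers pair the pools by litter. With a replicate block, 71 genes and 0 TCA genes were called, and Cs was at -0.10 (limma adjusted p = 0.376). The shares of counting error and of spread between pools in the intervals of the TCA genes were not separated.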
